A study of Mus musculus with 4 samples.

Results

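The transcription factor genes *Batf*, *Batf3*, *Irf4*, *Irf8*, *Irf1* and *Irf2* were examined by RNA-seq in mouse CD4 T cells that carried either an empty retrovirus (EV RV) or a retrovirus encoding TOX (Tox RV). The 6 genes were taken by symbol from the 24369 genes of the deposited tables, and all 6 were found and had enough counts to be tested. The cells were naïve CD4 T cells from the spleens of WT (C57BL/6) mice, activated through CD3 and CD28 with added human IL-2 and no polarizing cytokines, transduced on day 2, restimulated through CD3 on day 5 for 5 h and sorted as GFP+ cells. EV RV was MSCV-IRES-eGFP and Tox RV the same vector with Tox placed before the IRES, so all 4 libraries came from activated, transduced and sorted cells and the groups differed by the Tox insert. Each group had 2 libraries, described in the study as biological replicates from 2 mice, and the age and sex of the mice are not given in the sources used here. TOX was made from a viral promoter, so its level was not set by the *Tox* locus.

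BATF and BATF3 are small basic leucine zipper proteins. They have no activation domain of their own, and bind DNA as dimers with JUN proteins. In T cells and dendritic cells these dimers recruit IRF4 or IRF8, which bind DNA poorly alone, to composite AP-1 and interferon response elements (AICE). IRF4 is induced by T cell receptor signalling and is needed for effector CD4 T cell programmes and for *Il10* expression, while IRF8 is best known from B cells and dendritic cells. IRF1 is induced by interferon-γ and activates interferon response elements, and IRF2 binds the same elements and mostly opposes it. In the study the RNA-seq served to look for genes and pathways that TOX may regulate in CD4 T cells. The study addressed the role of BATF by other assays (public binding data, PCR and flow cytometry). The comparison here asks how much transcript of BATF, its relative and its IRF partners was present with and without the Tox insert.

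Sequences upstream of the start sites are shown because the genes differ in the interferon-related motifs that they carry there. In the 250 bases before each RefSeq start (GRCm38.p6), on both strands, the search covered the AP-1 site TGANTCA, the interferon-γ-activated site (GAS element) TTCNNNGAA, a repeat of GAAA with 2 bases between the copies, and 2 AICE forms that join TTTC by 4 bases, or GAAA directly, to TGANTCA and so overlap an AP-1 site. A GAS element was present before the first start of *Batf3*, *Irf8*, *Irf1* and *Irf2*, and not before that of *Batf* or *Irf4*. Of 32851 upstream windows of the same length in RefSeq, 7.02% held a GAS element, 6.75% an AP-1 site, 2.98% the GAAA repeat and 0.0974% and 0.101% the 2 AICE forms. The windows of *Irf1*, *Irf8* and *Irf2*, all on the plus strand, are given with the matches in capitals, and in *Irf2* the GAAA repeat lies before the GAS element.
Irf1, chr11:53769764-53770013: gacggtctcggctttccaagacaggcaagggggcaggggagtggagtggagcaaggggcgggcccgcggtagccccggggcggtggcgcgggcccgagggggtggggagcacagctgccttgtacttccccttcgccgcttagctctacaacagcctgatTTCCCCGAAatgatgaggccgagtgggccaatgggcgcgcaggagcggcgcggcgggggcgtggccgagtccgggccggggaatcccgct
Irf8, chr8:120736108-120736357: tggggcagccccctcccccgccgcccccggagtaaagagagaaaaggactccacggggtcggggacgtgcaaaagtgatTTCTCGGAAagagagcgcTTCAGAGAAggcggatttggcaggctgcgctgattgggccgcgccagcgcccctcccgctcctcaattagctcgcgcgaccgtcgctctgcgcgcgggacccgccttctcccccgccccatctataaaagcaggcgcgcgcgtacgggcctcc
Irf2, chr8:46739495-46739744: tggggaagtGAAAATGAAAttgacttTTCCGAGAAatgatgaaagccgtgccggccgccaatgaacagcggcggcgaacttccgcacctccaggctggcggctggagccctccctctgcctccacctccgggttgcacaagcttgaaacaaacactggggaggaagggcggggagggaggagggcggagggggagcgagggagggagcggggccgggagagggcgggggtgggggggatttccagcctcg
The *Irf1* element began 90 bases before the start, the *Irf8* elements 171 and 153 bases, the *Irf2* element 224 bases and the *Batf3* element 239 bases before it, where its window lies inside the longer gene that GENCODE annotates. No window of the 6 genes, including the second starts listed for *Irf1* and *Irf8*, held an AP-1 site or an AICE form. These matches are letters in a window, and binding was not measured.

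The libraries held 46989997 to 74548723 expected counts. *Tox* itself was at 11.7 and 5.73 CPM (CPM, the count as a share of the TMM-scaled library total) with EV RV against 121 and 99.9 CPM with Tox RV. It was on the side of the labels in all 4 libraries, with a log2 fold change of 3.68 (adjusted p = 0.490, edgeR). No gene had a smaller adjusted p by edgeR, so the insert itself was not called, whereas DESeq2 called it (adjusted p = 3.8e-24). The lack of an edgeR call is thus no sign that a gene was unchanged. EV RV replicate 1 stood apart from the others, at -42.8 on the first principal component against 5.70 to 19.6, and *Rn45s*, the ribosomal RNA precursor, took 24.7% of its counts against 7.14% to 11.97% in the others. In 74.1% of the 14143 genes tested EV RV replicate 1 was the lowest or the highest library, so the fold change of every member is also given without it. The same held for 4 of the 6 members (66.7%). The CD4 T cell markers were all detected, with summed levels of 1877 to 2709 CPM in EV RV and 2214 to 2514 CPM in Tox RV libraries. *Irf8* and *Batf3* are also genes of dendritic cells and *Irf8* and *Irf4* of B cells, so markers of those cells were read in the same libraries. Of 11 myeloid and dendritic markers the sum was 7.21 to 10.1 CPM in EV RV and 7.34 to 8.85 CPM in Tox RV libraries, with *Lyz2*, *Cd14* and *Clec9a* at no more than 2 counts in any library. Most of that sum was *Xcr1*, a receptor of cross-presenting dendritic cells, at 8.11 and 4.83 CPM with EV RV against 6.62 and 5.55 CPM with Tox RV. The 7 B cell markers in the tables summed to 2.25 and 2.35 CPM with EV RV against 2.23 and 2.10 CPM with Tox RV, with *Ms4a1* and *Pax5* at 0 in all 4. The 8 CD8 T and NK cell markers summed to 200.2 and 202 CPM with EV RV against 246 and 199 CPM with Tox RV, with *Ncr1* at 0 in all 4. Within that sum *Nkg7* was at 63.8 and 77.3 CPM with EV RV against 141 and 116 CPM with Tox RV (unadjusted p = 0.00491, adjusted p = 0.897, edgeR), while *Klrk1* (36.6, 10.5, 17.2 and 4.86 CPM) and *Klrd1* (14.2, 1.90, 10.2 and 1.99 CPM) were higher in replicate 1 of each group. In RNA from a sorted pool, fewer cells that express a gene and less RNA per cell cannot be told apart.

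None of the 6 genes was called by the quasi-likelihood test of edgeR at an adjusted p-value of 0.05 (adjusted p = 0.897 for each), and 0% of the 14143 genes tested were. *Irf8* was the only member with an unadjusted p-value below 0.05, against 3.62% of all genes, and DESeq2 called none of the 6 (adjusted p = 1.00 for each) against 0.156% of all genes. Of the members, 5 had a lower mean in Tox RV cells and 1, *Batf*, a higher mean. Without EV RV replicate 1 again 5 were lower and 1 higher, but the higher gene was *Irf2* and *Batf* was among the lower. In 2 members, *Irf8* and *Irf1*, each Tox RV value was under each EV RV value, an arrangement found in 17.4% of all genes, and in none did both lie above, as in 18.6% of all genes. The plot of CPM by library shows the 4 values of each member.

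**Figure D1:**
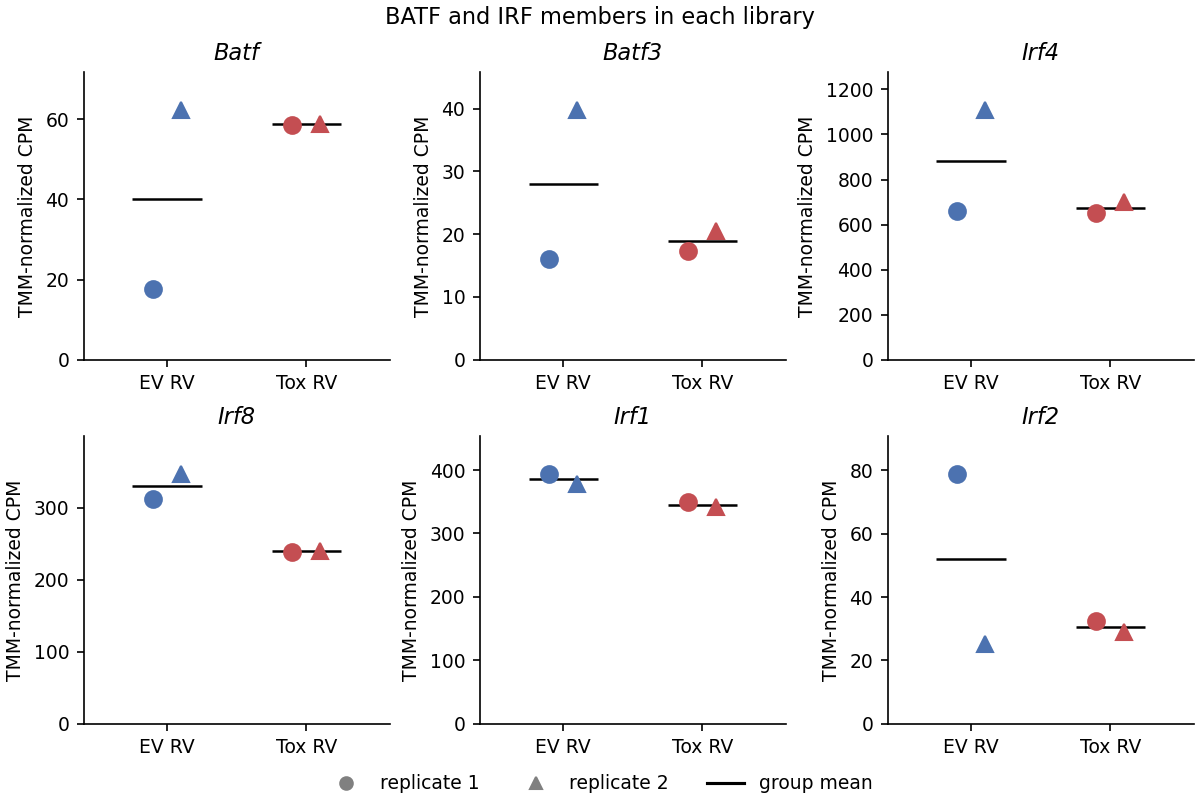
TMM-normalized CPM (vertical axes, from 0) of the 6 members in the 2 EV RV libraries (blue) and the 2 Tox RV libraries (red), with circles for replicate 1, triangles for replicate 2 and a bar at the group mean. The Tox RV libraries sit close together in every panel, while the EV RV libraries are far apart in *Batf* (17.6 and 62.4 CPM), *Batf3* and *Irf2*.

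*Batf*, a protein-coding gene at chr12:85686669-85709087 (mm10, plus strand), was counted at 17.6 (replicate 1) and 62.4 CPM (replicate 2) with EV RV, against 58.7 and 58.7 CPM with Tox RV. The Tox RV libraries were nearly identical and lay between the EV RV libraries, just under replicate 2. Group means ± SD (n = 2) were 40.0 ± 31.7 CPM with EV RV and 58.7 ± 0.0522 CPM with Tox RV. This gave a log2 fold change of 0.55 (standard error 0.55, 95% interval -0.80 to 1.90), which spans 0.576-fold to 3.73-fold, so neither a decrease nor a large increase lay outside it. The EV RV replicates differed 3.55-fold, and only 0.523% of genes differed more between these libraries, while 99.3% differed more between the Tox RV replicates. The fit without EV RV replicate 1 gave -0.09, while the fit without EV RV replicate 2 gave 1.74, so the choice of control library decided both its sign and its size. In each of these fits the spread comes from the Tox RV libraries alone, so the fold change is given without a p-value, here and below.

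*Batf3*, which encodes a close relative of BATF that is required for cross-presenting dendritic cells, lies at chr1:191097847-191108945 (plus strand). It was counted at 16.0 (replicate 1) and 39.8 CPM (replicate 2) with EV RV, against 17.3 and 20.5 CPM with Tox RV. EV RV replicate 2 was the high library, and the other 3 were close together. The fitted log2 fold change was -0.57 (standard error 0.42, 95% interval -1.61 to 0.48). Without EV RV replicate 1 it was -1.08, and 0.24 without EV RV replicate 2.

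Within a library the ratio of *Batf* to *Batf3* does not depend on library scaling. On the TPM scale, which is a share of all transcripts and so allows for length, the ratio was 0.820 and 1.17 with EV RV (replicate 1, then 2) against 2.53 and 2.13 with Tox RV. Both Tox RV libraries were above both EV RV libraries, including EV RV replicate 2, which had the highest level of each gene. *Batf* made up 45.0% and 53.9% of the TPM of the pair with EV RV against 71.7% and 68.1% with Tox RV. Of 11 sums, shares and ratios compared in this way, this ratio had an exact two-sided permutation p of 0.333, the smallest that 2 against 2 libraries allow, and an adjusted p of 0.733. The shares of *Batf* and *Batf3*, which restate the ratio, had the same p, as did the summed TPM of the IRF members and the share of *Irf8* in it. The summed TPM of the pair was 86.4 and 243 with EV RV against 167 and 176 with Tox RV, with overlapping groups (165 ± 111 and 171 ± 6.50, SD, n = 2).

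**Figure D2:**
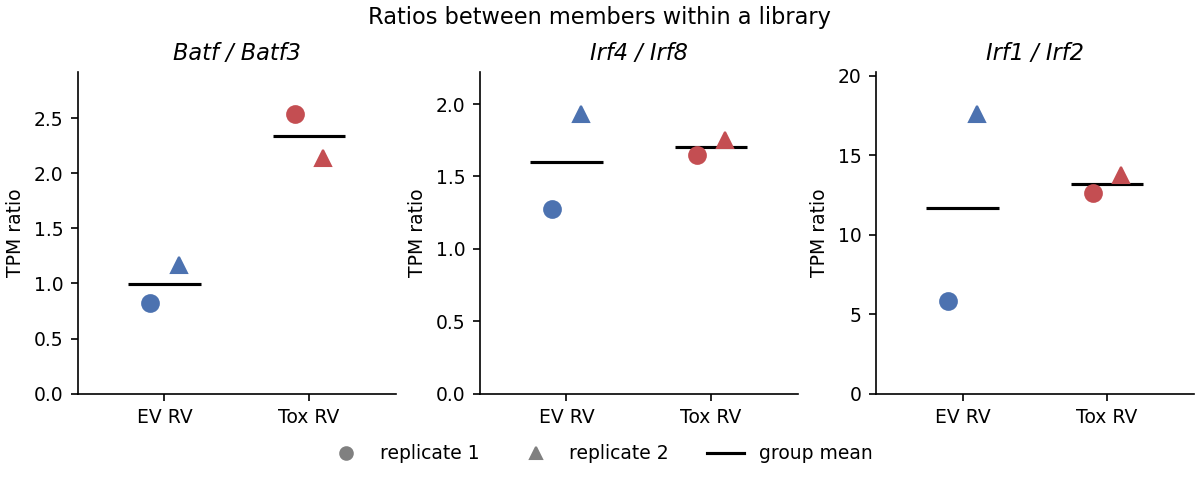
Ratio of TPM between members within each library (vertical axes, from 0), for the 2 EV RV libraries (blue) and the 2 Tox RV libraries (red), with a bar at the group mean. *Batf* over *Batf3* is the panel in which the groups do not overlap (0.820 and 1.17 against 2.53 and 2.13), and the other 2 ratios overlap.

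*Irf4*, at chr13:30749226-30766976 (plus strand), had the most counts of the 6 genes, 27793 to 84483 in a library. It was counted at 659 (replicate 1) and 1109.9 CPM (replicate 2) with EV RV, against 652 and 699 CPM with Tox RV. EV RV replicate 2 was again the high library, and EV RV replicate 1 lay between the Tox RV libraries. The fitted log2 fold change was -0.39 (standard error 0.27, 95% interval -1.06 to 0.28). Without EV RV replicate 1 it was -0.72, and 0.04 without EV RV replicate 2. The member nearest to *Irf4* in pattern was *Batf3* (Euclidean distance 0.400 between log2 CPM values centred on their own means, 4 libraries), while the distance from *Irf4* to *Batf* was 1.37.

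*Irf8*, at chr8:120736358-120756694 (plus strand), was counted at 312 (replicate 1) and 347 CPM (replicate 2) with EV RV, against 239 and 239.9 CPM with Tox RV. The groups did not overlap, and the replicates of each group were close. Group means ± SD (n = 2) were 330 ± 24.7 CPM with EV RV and 239 ± 0.977 CPM with Tox RV. This gave a log2 fold change of -0.46 (standard error 0.16, 95% interval -0.87 to -0.06), a ratio of 0.726, with an unadjusted p-value of 0.0313 that did not pass adjustment over all genes (adjusted p = 0.897, edgeR). In the 4 fits that omit 1 library it lay between -0.54 and -0.38, and it was -0.54 without EV RV replicate 1. With DESeq2 the unadjusted p-value was 0.0506 (adjusted p = 1.00). With edgeR it was 0.152 when libraries were scaled by their totals (log2 fold change -0.35, adjusted p = 0.830). In that fit the median log2 fold change of all genes was 0.12. The unadjusted p-value of *Irf8* by edgeR was 0.0300 with RLE scaling, 0.0321 with the replicate number as a block and 0.0474 with no low-count filter. With limma it was 0.00933 on log2(TPM + 1) and 0.0102 on log2(TPM + 0.1). No adjusted p-value of *Irf8* in these fits was below 0.05. Fits that omit a library leave 1 library in a group, so no p-value is given for them. Of the 5 myeloid and dendritic markers with enough counts, 1 had a higher and 4 a lower mean with Tox RV (median log2 fold change -0.27). Of 3 B cell markers 1 was higher (*Cd79b*, 0.60) and 2 were lower (median -0.49). Apart from *Xcr1* these markers were at or below 1.27 CPM in every library, and the summed B cell markers ran from 2.10 to 2.35 CPM. The part of such cells in the *Irf8* difference was not tested. The gene overlaps the gene model *Gm20388* on the same strand, which is not among the genes of the deposited tables.

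*Irf1*, at chr11:53770014-53778374 (plus strand), was counted at 394 (replicate 1) and 377 CPM (replicate 2) with EV RV, against 349 and 341 CPM with Tox RV. Both Tox RV libraries were below both EV RV libraries by a small margin. The fitted log2 fold change was -0.16 (standard error 0.16, 95% interval -0.55 to 0.23), and with 1 library omitted it stayed between -0.19 and -0.13, the latter without EV RV replicate 1. Other choices moved it more, to -0.04 with scaling by library totals and -0.24 with limma on log2 TPM. A ratio below 0.684 or above 1.17 lay outside the interval. *Irf1* overlaps the gene model *Gm17334* on the other strand, so reads of either could be counted for *Irf1* unless strand was used, which is not stated.

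*Irf2*, at chr8:46739732-46847458 (plus strand), ran opposite to *Batf* across the control libraries. It was counted at 79.0 (replicate 1) and 25.1 CPM (replicate 2) with EV RV, against 32.3 and 29.0 CPM with Tox RV. EV RV replicate 1 was the high library, 3.15 times replicate 2, and 0.841% of genes differed more between these libraries. The fitted log2 fold change was -0.76 (standard error 0.51, 95% interval -2.02 to 0.49). It was 0.28 without EV RV replicate 1 and -1.37 without EV RV replicate 2. The ratio of *Irf1* to *Irf2* on the TPM scale was 5.83 and 17.6 with EV RV against 12.6 and 13.8 with Tox RV, with overlapping groups. 3 gene models on the other strand overlap *Irf2*, so its counts carry the same limit on strand.

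**Figure D3:**
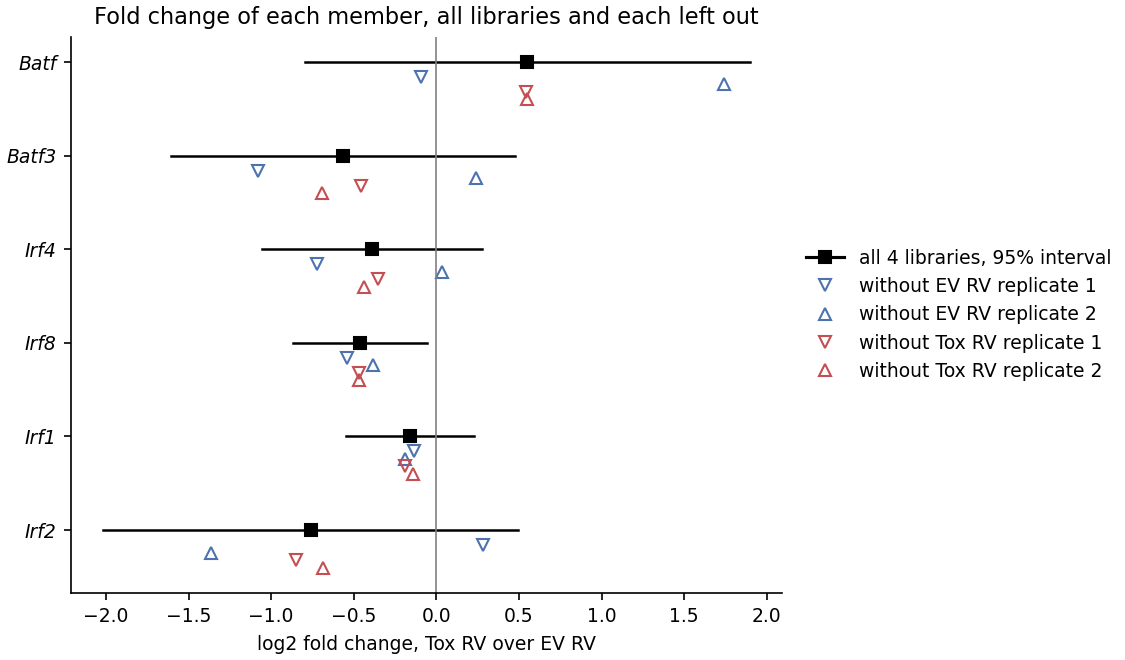
Log2 fold change of Tox RV over EV RV (horizontal axis) for each member, with black squares and lines for the fit to all 4 libraries and its 95% interval, and triangles for the fits that each leave out 1 library. *Irf8* and *Irf1* keep their sign in all 4 such fits, while *Batf* and *Irf2* change sign without EV RV replicate 1, and *Batf3* and *Irf4* without EV RV replicate 2.

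The spread between replicates was larger in EV RV than in Tox RV libraries for all 6 members, as for 72.9% of all genes. The log2 difference of EV RV replicate 1 from replicate 2 was -1.80 for *Batf*, -1.29 for *Batf3*, -0.75 for *Irf4*, -0.15 for *Irf8*, 0.06 for *Irf1* and 1.64 for *Irf2*. In 4 members, all but *Irf8* and *Irf1*, this difference was larger than the log2 fold change between the groups. Between the Tox RV libraries the log2 differences of the members ran from -0.24 (*Batf3*) to 0.16 (*Irf2*).

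Compared per transcript length, IRF transcripts other than *Irf2* were more abundant than BATF transcripts in every library. In EV RV cells the mean TPM was 316 ± 103 (SD, n = 2) for *Irf4*, 315 ± 21.1 for *Irf1*, 196 ± 7.80 for *Irf8*, 85.1 ± 65.3 for *Batf*, 79.9 ± 45.8 for *Batf3* and 36.8 ± 27.9 for *Irf2*. The values of *Irf4* and *Irf1* overlapped between libraries, as did those of *Batf* and *Batf3* and of *Batf3* and *Irf2*, so the order of these neighbours was not resolved. In Tox RV cells the order was *Irf1* (266 ± 4.48), *Irf4* (229 ± 11.3), *Irf8* (135 ± 0.771), *Batf* (119.6 ± 0.163), *Batf3* (51.6 ± 6.34) and *Irf2* (20.2 ± 1.56), with no overlap between neighbours. *Irf2* was above both BATF genes in EV RV replicate 1 alone, at 56.5 TPM against 47.5 for *Batf3* and 38.9 for *Batf*.

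**Figure D4:**
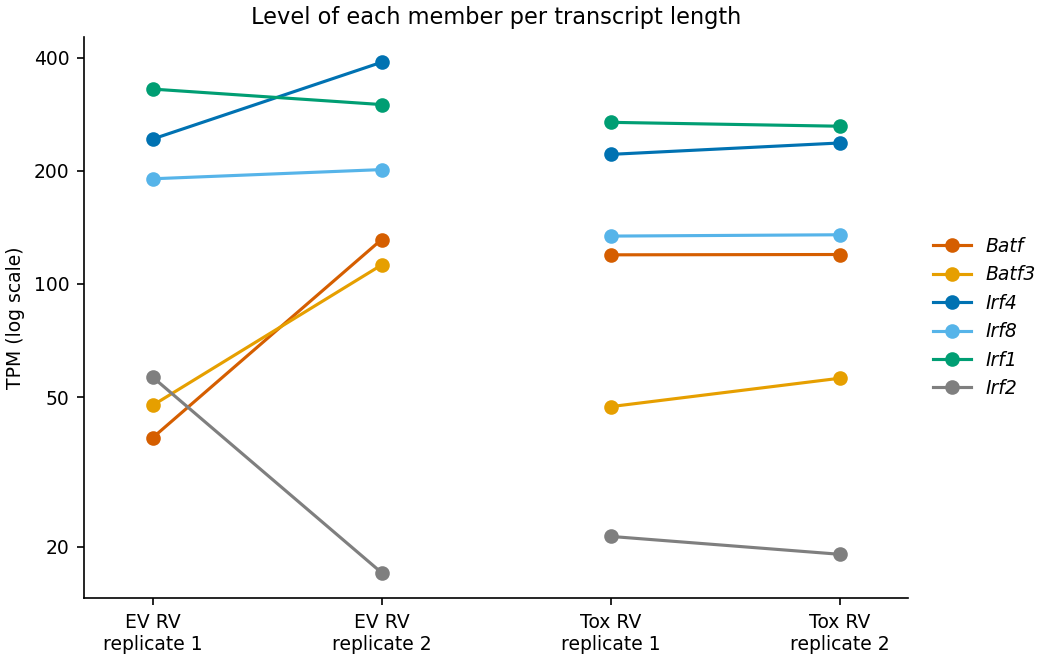
TPM of each member (vertical axis, log scale) in the 4 libraries, with lines joining the 2 replicates of a group. Between the EV RV replicates the lines of *Batf*, *Batf3* and *Irf2* cross one another, as do those of *Irf4* and *Irf1*, and no lines cross between the Tox RV replicates.

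The 4 IRF members together were at 820 and 907 TPM with EV RV against 645 and 654 TPM with Tox RV. Both Tox RV libraries were lower, with an exact two-sided permutation p of 0.333, the smallest possible, and an adjusted p of 0.733. The share of *Irf8* in this sum was 23.2% and 22.2% with EV RV against 20.8% and 20.7% with Tox RV. *Irf4* held 29.6% and 42.8% of it with EV RV against 34.3% and 36.3% with Tox RV, and the ratio of *Irf4* to *Irf8* was 1.28, 1.93, 1.65 and 1.75 in the same order. TPM are shares of all transcripts in a library, and *Rn45s* took more of EV RV replicate 1 than of the others and its part in these sums was not tested. The mean transcript length that RSEM gave *Irf8* (2 transcripts) ran from 2881 to 2888 bases and that of *Irf1* (3 transcripts) from 2146 to 2147 bases, a range of 6.68 bases and 1 base. The other members had 1 transcript each.

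Further genes of the families showed the same lack of calls. Of *Batf2*, *Irf3*, *Irf5*, *Irf7* and *Irf9*, 0 passed an adjusted p-value of 0.05, 4 had a lower and 1 a higher mean in Tox RV cells, and the median log2 fold change was -0.23 against 0.00361 over all genes tested. *Irf7*, an interferon-induced activator of type I interferon genes, was at 29.7 and 19.9 CPM with EV RV against 10.8 and 16.4 CPM with Tox RV (log2 fold change -0.86, unadjusted p = 0.0291, adjusted p = 0.897, edgeR). *Batf2* stayed at or below 0.302 CPM in every library.

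The JUN proteins supply the dimer partners of BATF, and the FOS genes were listed with the JUN genes. Of these 7 JUN and FOS genes 0 passed the adjusted threshold. Of them 3 had a higher and 4 a lower mean with Tox RV, and the median log2 fold change was -0.19. *Jun* was at 155 and 101 CPM with EV RV against 68.1 and 66.9 CPM with Tox RV, a log2 fold change of -0.92 (unadjusted p = 0.00918, adjusted p = 0.897, edgeR). *Junb*, which encodes a partner of BATF in T cells, was at 311 and 324 CPM with EV RV against 396 and 316 CPM with Tox RV, with overlapping groups. *Fosl2* was at 57.1 and 45.4 CPM with EV RV against 38.5 and 23.6 CPM with Tox RV. *Spi1*, which encodes PU.1, the partner of IRF4 and IRF8 in B cells, was at no more than 1 count in a library. Among the other 5 ETS and Ikaros partners 0 passed, 3 had a higher and 2 a lower mean with Tox RV (median 0.19), and *Ets1* was higher in both Tox RV libraries (1138 and 1167 CPM) than in both EV RV libraries (978 and 935 CPM).

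Upstream of *Batf* and *Irf4*, T cell receptor and NF-κB signals were represented by 9 genes, of which 0 passed, 2 had a higher and 7 a lower mean in Tox RV cells (median log2 fold change -0.17). EV RV replicate 1 was the highest library in 6 of the 9 and the lowest in 0, against 37.0% of all genes for each. Of 10 genes of interferon signalling, which drives *Irf1* and *Irf8*, 0 passed and 8 had a lower mean in Tox RV cells (median -0.22). Here too EV RV replicate 1 was often the highest library, in 6 of the 10, and the lowest in 2. The 6 included *Stat2* and *Ifngr1* but not *Ifngr2*. *Stat2* was at 95.8 and 69.4 CPM in EV RV against 49.5 and 48.4 CPM in Tox RV libraries, and *Ifngr1* and *Ifngr2* encode the interferon-γ receptor chains. The unadjusted p-values of *Stat2*, *Ifngr1* and *Ifngr2* were 0.0124, 0.0475 and 0.0246 (adjusted p = 0.897 for each, edgeR). An unadjusted p-value below 0.05 was found in 3.62% of all genes. *Ifng* was at 10.9 and 107 CPM with EV RV against 96.0 and 47.4 CPM with Tox RV. Of 8 genes whose products bind or regulate the IRF proteins, 0 passed and 5 had a higher mean in Tox RV cells, with a median of 0.12 and *Def6*, which restrains IRF4, at 96.1 and 87.7 CPM with EV RV against 121 and 109 CPM with Tox RV.

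Downstream, 14 of 16 listed genes with known BATF and IRF4 input had enough counts, and 0 passed by edgeR, 8 with a higher and 6 with a lower mean in Tox RV cells (median log2 fold change 0.06). *Il12rb2*, an IL-12 receptor gene, was the 1 gene of this list called by DESeq2 (adjusted p = 0.0111), which called 0.156% of all genes, at 442 and 247 CPM with EV RV against 150 and 113 CPM with Tox RV. *Il10* was counted at 1.16 (replicate 1) and 53.4 CPM (replicate 2) with EV RV, against 89.6 and 69.1 CPM with Tox RV. Its low library was EV RV replicate 1, which was the lowest library for *Batf* too, and for *Havcr2* and *Prdm1* below. EV RV replicate 1 was the lowest library in 37.0% of all genes. By the distance used for *Irf4* above, *Il10* was the furthest from *Batf* of the 72 listed genes other than members and markers (distance 3.22). The EV RV replicates differed 46.0-fold in *Il10* and 3.55-fold in *Batf*, and a link between these genes was not tested. The gene of the list nearest to *Batf* in pattern was *Havcr2*, which encodes TIM-3, at 18.0 and 73.5 CPM with EV RV against 92.9 and 63.3 CPM with Tox RV (distance 0.486), followed by *Prdm1*, which encodes Blimp-1, at 17.4, 36.7, 30.3 and 30.3 CPM in the same order (distance 0.768). EV RV replicate 1 was the lowest library in 7 of the 14 and the highest in 5. Of 14 IRF1 target genes, most of them in antigen presentation, 0 passed, 5 had a higher and 9 a lower mean in Tox RV cells (median -0.10). *Tap1*, *Gbp2*, *Gbp3*, *Nlrc5* and *Cxcl10* were the 5 of 14 with each Tox RV value under each EV RV value, as in 17.4% of all genes, with *Tap1* at 529.5 and 517 CPM with EV RV against 412 and 436 CPM with Tox RV. In each of these 5 genes EV RV replicate 1 was the highest library. Among the 14 IRF1 targets that library was the highest in 9 and the lowest in 4, against 37.0% of all genes for each.

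**Figure D5:**
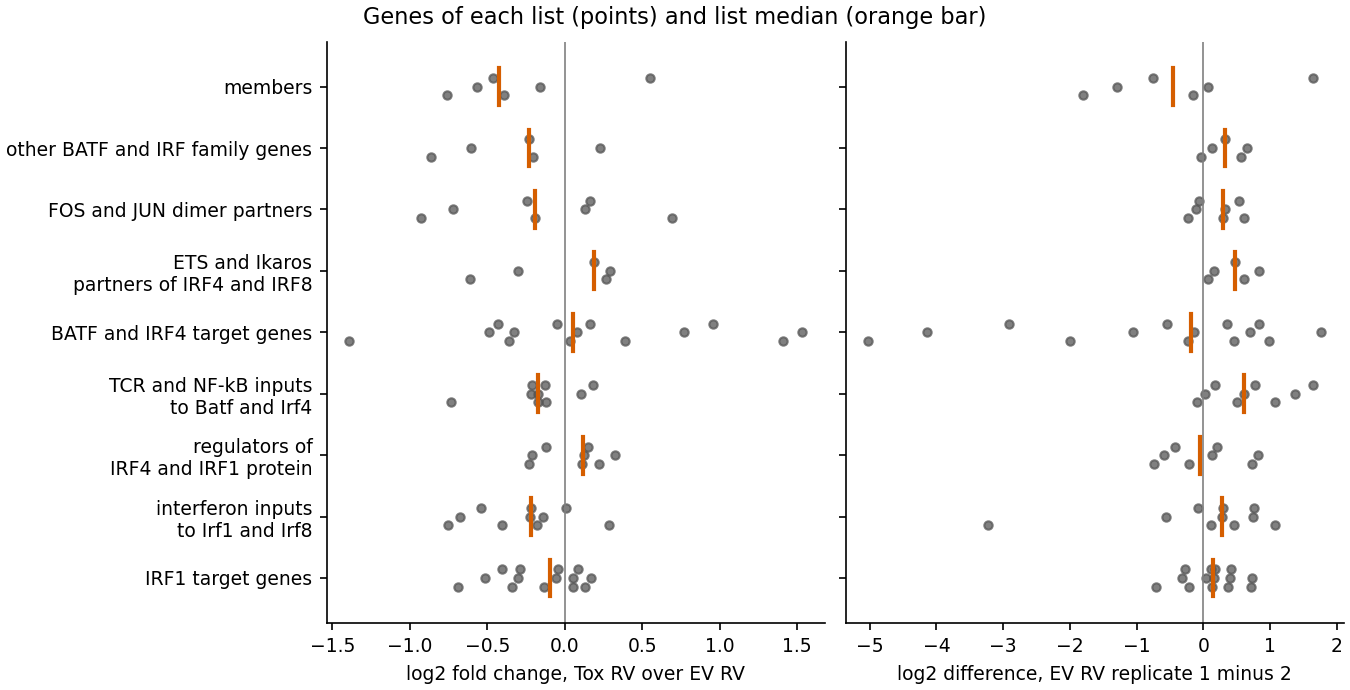
Log2 fold change of Tox RV over EV RV (left, horizontal axis) and log2 difference between EV RV replicates 1 and 2 (right) for each tested gene (points) of the lists named on the vertical axis, with an orange bar at the list median. The BATF and IRF4 targets run from -1.39 (*Il12rb2*) to 1.53 (*Il10*) between the groups and from -5.02 (*Il10*) to 1.76 (*Bcl6*) between the EV RV replicates.

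List medians moved with the library left out. Without EV RV replicate 1, for the T cell receptor and NF-κB genes the median turned to 0.16, with 5 of 9 higher, and for the genes whose products bind or regulate the IRF proteins to -0.02, with 4 of 8 higher. The others kept their sign in that fit, at -0.14 for the further family genes (3 of 5 lower), -0.09 for the FOS and JUN genes (4 of 7 lower), 0.29 for the ETS and Ikaros genes (3 of 5 higher), 0.02 for the BATF and IRF4 targets (7 of 14 higher), -0.17 for interferon signalling (7 of 10 lower) and -0.05 for the IRF1 targets (10 of 14 lower). The median of the ETS and Ikaros genes turned to -0.17 without EV RV replicate 2, and that of the BATF and IRF4 targets ran from -0.15 without Tox RV replicate 1 to 0.42 without EV RV replicate 2. Scaling by library totals turned the median of the IRF1 targets to 0.03, where the median of all genes was 0.12.

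The genes whose values over the 4 libraries were most like each member were found among 8512 genes with a mean of at least 10 CPM, by the same distance. They were *Crabp2*, *Calcrl* and *Pole3* for *Batf* (distances 0.276 to 0.363), *Sema4b*, *Gprin3* and *Rai14* for *Batf3* (0.138 to 0.192), and *Vezt*, *Suco* and *Epas1* for *Irf4* (0.101 to 0.108). For *Irf8* they were *Soat2*, *Lamc1* and *Pck2* (0.0707 to 0.0817), for *Irf1* *Rabl3*, *Bod1l* and *Son* (0.00383 to 0.0314), and for *Irf2* they included *Tecpr1* and *St8sia1* (0.108 and 0.142). *Calcrl*, for example, was at 28.8 and 108 CPM with EV RV against 78.3 and 86.3 CPM with Tox RV. With 4 libraries many genes share such a pattern, and the distances are a description.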

How the data were processed

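RNA-seq of 4 libraries was analysed, with groups and replicate numbers from the sample labels. The authors aligned reads with bowtie1 to mm10 transcripts and estimated each gene with RSEM, and the submitters' processing notes also list Bowtie2. Tool versions and the use of strand are not given in the sources used here. Expected counts, as deposited, are unnormalized RSEM estimates per gene. The deposited TPM are transcript shares scaled to a constant sum within a library, by RSEM. The deposited transcript length is RSEM's abundance-weighted mean. A combined table labelled as TPM was not used, because its columns do not have the constant sum of TPM.

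Expected counts were rounded, and genes were kept by filterByExpr (minimum count 10), which left 14143 of 24369. After TMM scaling the groups were compared in R 4.3.3 with edgeR 4.0.16 (glmQLFit, glmQLFTest, no block), with Benjamini-Hochberg adjustment over all genes tested. Intervals are unadjusted 95% intervals. The labels number the replicates, and the study describes them as 2 individual mice for each group. Gene lists were described by counts and medians, and TPM sums and ratios by exact permutation tests. Alternatives were DESeq2 1.42.0 (the tool named in the methods), other scaling, no filter, the replicate number as a block, limma 3.58.1 on log2(TPM + 1) and log2(TPM + 0.1), and each library left out. Distances used log2(CPM + 0.5). Gene coordinates are from GENCODE M21 (mm10) and upstream sequences from RefSeq (GRCm38.p6), in which all 6 genes matched by symbol.

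The members and gene lists were chosen with earlier results of these data known. Named genes were the members, list genes called by either tool, above 50 CPM in a group, or changed over 2-fold without overlap, and the 3 genes nearest to each member. Other genes are named after their values were seen. A few genes of the lists and of the nearest genes are not reported here, and list counts and medians leave them out.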

Additional observations from a re-analysis of the deposited data

How the results depend on the processing

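The log2 fold changes of the 6 members had the same sign and no adjusted p-value below 0.05 under DESeq2, other scaling, no low-count filter, the replicate block and both limma fits. Scaling by library totals moved *Irf8* to -0.35 and *Irf1* to -0.04, further than leaving out any library did. Over the fits that leave out a library *Batf* ran from -0.0936 to 1.74, *Batf3* from -1.08 to 0.24, *Irf4* from -0.72 to 0.0357, *Irf8* from -0.54 to -0.38, *Irf1* from -0.19 to -0.13 and *Irf2* from -1.37 to 0.28. The cause of the changes was not tested. The sign was reversed for *Batf* (-0.0936) and *Irf2* (0.28) without EV RV replicate 1 and for *Batf3* (0.24) and *Irf4* (0.0357) without EV RV replicate 2. *Batf* (1.74) and *Irf2* (-1.37) were furthest from 0 without EV RV replicate 2. In the fits without either EV RV library the spread came from the Tox RV libraries alone, and the lone EV RV library was assumed to vary like them. Calls in those fits therefore do not measure the variation between control libraries. The number of genes with an adjusted p-value below 0.05 was 0 by edgeR (512 at an unadjusted p-value below 0.05), 22 with DESeq2, 22 when no gene was filtered and 16 under the replicate block. It ran from 1 to 393 with a library left out, being 1 without EV RV replicate 1, 393 without EV RV replicate 2, 10 without Tox RV replicate 1 and 22 without Tox RV replicate 2. With the replicate number as a block *Batf* had a log2 fold change of 0.82 (unadjusted p = 0.0274, adjusted p = 0.494, edgeR). In the same fit *Irf8* had one of -0.46 (unadjusted p = 0.0321, adjusted p = 0.509, edgeR), and 1232 genes had an unadjusted p-value below 0.05. Same-numbered libraries deviated from their group means with a correlation of 0.377 over genes, but nothing ties a number to 1 mouse, so the samples were not treated as pairs. Scaling by library totals moved the median of all genes to 0.124. Member counts were 675 or more in every library.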
